A study of Mus musculus with 12 samples.

Results

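The middle of the mouse small intestine was compared with its proximal part on 8 of the 12 arrays of the series, the 4 middle and the 4 proximal arrays, which were chosen by the segment given in their labels and paired by the pool of mice they came from. All mice were male C57BL/6J, and they were 21 (old) or 4 (young) months old when they had received a purified diet with 45% (high-fat) or 10% (low-fat) of its energy as fat, with palm oil in place of lard, for 2 weeks, after a run-in on the low-fat diet. The small intestine was cut into 3 equal lengths, and the scrapings used for RNA held mucosa and submucosa, so that a level stands for a mixture of cell types. RNA of 8 old or 6 young mice was pooled in equal amounts, and each pool gave 1 Affymetrix Mouse Gene 1.0 ST array per segment. Values of single arrays are given in the order old high-fat, old low-fat, young high-fat and young low-fat pool. A pool is a single age and diet group, so the spread between pools holds any effect of age and diet together with the spread between mice. Precision is limited by the small number of arrays.

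Levels are log2 intensities, comparable for 1 gene between arrays and not between genes. Of 19938 genes with a probe set of their own, 11948 reached an intensity of 50 on at least 1 of the 12 arrays and were tested. A difference is the middle minus the proximal log2 level, averaged over the 4 pools, with its standard error from limma with the pool as a block. A gene passed when its p-value, adjusted over all genes tested, was under 0.05. Markers of the epithelium had a median level above the intensity of 50 in both segments. The median of 12 such genes was 11.60, 11.69, 11.68 and 11.76 on the middle arrays and 11.57, 11.62, 11.61 and 11.61 on the proximal arrays. Of these 12 genes 7 passed as higher in the middle segment, where 16.3% of all genes tested did so, and none as lower (median difference 0.18). Without the old low-fat, without the old high-fat or without the young high-fat pool 4 passed. Cdx1, Cdx2 and Hnf4a are also on the list of regional transcription factors below, and Cdx1 and Cdx2 are among the 7.

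The lining of the small intestine is renewed from stem cells in the crypts, which give rise to absorptive enterocytes, mucus-producing goblet cells, hormone-producing enteroendocrine cells and Paneth cells. What enterocytes take up changes along the length. The duodenum receives acid, bile and pancreatic juice and is known for the uptake of iron, calcium and folate. The jejunum is known for the digestion and uptake of sugars, peptides and fat, and the ileum for the recovery of bile acids and cobalamin. The stomach, Brunner's glands (mucus glands under the duodenal lining) and the pancreas border on the proximal end, so their transcripts were followed separately.

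Transcripts of duodenal iron and calcium handling were among the largest falls in the middle segment outside the lists of these 3 glands. So were a protease that activates pancreatic enzymes and an intestinal phosphatase. A brush border lipase, a monocarboxylate transporter and the ileal bile acid-binding protein were the largest rises. In all, 1944 genes (16.3%) passed as higher and 1592 (13.3%) as lower in the middle segment. The counts of gene lists below are to be read beside these shares of all genes tested. Without the old low-fat pool 1119 were higher and 954 lower, and without the young high-fat pool 1170 and 1006. With a difference over 2-fold as a further condition, 72 genes (0.603%) were higher and 133 (1.11%) lower. Over 2-fold in the same direction in each of the 4 pools were 48 genes (0.402%) higher and 84 (0.703%) lower. The median difference over all genes was 0.006. Falls reached further than rises: 32 genes were lower over 8-fold, of which 21 are on the pancreas, stomach or Brunner's gland lists, while 6 were higher over 8-fold. The levels of the 4 middle and the 4 proximal arrays did not overlap for 66 of the 72 higher and 126 of the 133 lower genes over 2-fold. These genes were chosen by their difference. Of all genes tested, 15.7% were higher and 11.1% lower with no overlap.

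**Figure D1:**
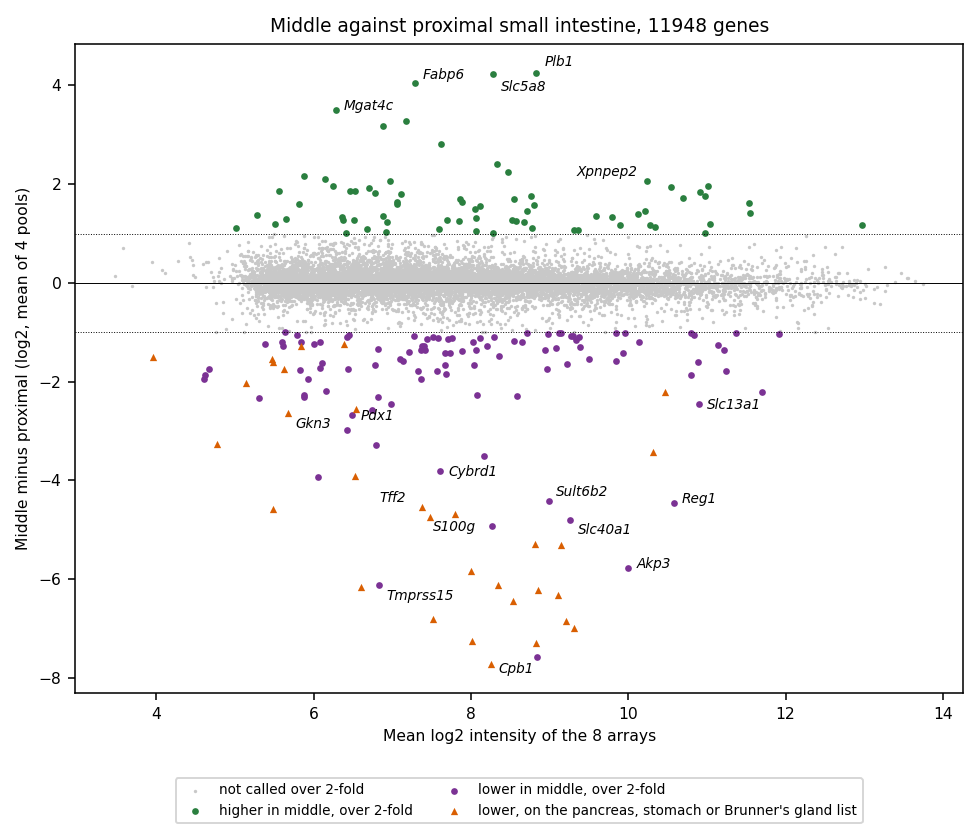
Difference between the middle and the proximal segment (vertical axis, log2, mean of 4 pools) against the mean log2 intensity of the 8 arrays (horizontal axis) for 11948 genes. Dotted lines mark 2-fold, coloured points are the 72 higher and 133 lower genes that passed, and triangles are the lower genes on the pancreas, stomach and Brunner's gland lists, which make up most of the largest falls.

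Tmprss15 encodes enteropeptidase, the brush border protease that activates trypsinogen. Its levels were 3.79, 3.59, 3.47 and 4.22 on the middle arrays and 9.81, 9.90, 9.71 and 10.13 on the proximal arrays. The middle arrays were all under the intensity of 50 used as the filter, and the difference was -6.12 ± 0.08 (SE, n = 4 pools, adjusted p = 2.71e-07). Differences that reach so low can understate a ratio, so that no fold is given for Tmprss15. Akp3, an intestinal alkaline phosphatase, had 7.0, 6.56, 6.89 and 8.02 on the middle arrays and 12.95, 13.01, 12.68 and 12.91 on the proximal arrays (difference -5.77 ± 0.22, adjusted p = 4.78e-05), the young low-fat pool being the highest of the middle arrays. Alpi, a related phosphatase, was lower by much less in the middle segment (difference -0.91 ± 0.07, adjusted p = 0.000316). S100g, the calcium-binding protein calbindin-D9k of enterocytes, had 6.09, 5.58, 5.93 and 5.59 on the middle arrays and 11.12, 10.60, 10.67 and 10.53 on the proximal arrays (difference -4.93 ± 0.06, adjusted p = 2.71e-07). Pdx1, a transcription factor of the duodenum and pancreas, had 5.19, 5.18, 5.26 and 5.01 on the middle arrays and 8.04, 7.79, 7.83 and 7.66 on the proximal arrays (difference -2.67 ± 0.06, adjusted p = 7.9e-06). None of these genes had an overlap between the middle and the proximal arrays.

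Other large falls were those of Otop3, of the otopetrin proton channel family, and Slc16a9, of the monocarboxylate transporter family. Otop3 had 6.99, 6.01, 6.35 and 6.30 on the middle arrays and 10.08, 9.98, 9.63 and 9.96 on the proximal arrays (difference -3.50 ± 0.14, adjusted p = 4.96e-05). Slc16a9 had 5.13, 5.02, 5.17 and 5.31 on the middle arrays and 8.29, 8.62, 8.16 and 8.68 on the proximal arrays (difference -3.29 ± 0.10, adjusted p = 1.85e-05). The distal mean of Slc16a9 was 4.99, close to its middle levels. Sult6b2, a cytosolic sulfotransferase, kept a higher level in the middle than in the distal segment: it had 7.12, 5.95, 7.42 and 6.62 on the middle arrays, 11.21, 11.22, 11.07 and 11.28 on the proximal arrays and a distal mean of 4.25 (middle minus proximal -4.42 ± 0.24, adjusted p = 0.000116). Reg1, a secreted C-type lectin also made by the pancreas, had 8.27, 8.39, 7.69 and 9.09 on the middle arrays and 12.83, 12.89, 12.65 and 12.87 on the proximal arrays (difference -4.45 ± 0.17, adjusted p = 4.78e-05), with its highest middle level in the young low-fat pool.

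Each of the 15 genes that rose most had a higher mean level still in the distal segment. Plb1, a phospholipase of the brush border, had 9.92, 11.23, 11.16 and 11.51 on the middle arrays and 6.33, 6.45, 7.35 and 6.72 on the proximal arrays. No proximal array came near a middle array (difference 4.24 ± 0.22, 19-fold, adjusted p = 0.000104), and the mean distal level was 12.17. Slc5a8, a sodium-coupled transporter of short-chain fatty acids and lactate, had 10.39, 10.16, 10.71 and 10.37 on the middle arrays and 5.87, 5.24, 7.70 and 5.86 on the proximal arrays, where the young high-fat pool was the highest (difference 4.24 ± 0.29, adjusted p = 0.000224). Fabp6, the ileal bile acid-binding protein, had 7.58, 8.84, 11.31 and 9.49 on the middle arrays and 4.59, 4.91, 5.48 and 6.07 on the proximal arrays. Its middle levels spread widely, the old high-fat pool being the lowest and the young high-fat pool the highest, and none overlapped with the proximal arrays (difference 4.04 ± 0.42, adjusted p = 0.00106). Mgat4c, of a family of enzymes that branch N-linked sugar chains, had 7.51, 7.86, 8.63 and 8.16 on the middle arrays and 4.31, 4.14, 5.14 and 4.56 on the proximal arrays (difference 3.50 ± 0.09, adjusted p = 9.09e-06).

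The remaining large rises include Fam151a (difference 3.29 ± 0.21), the gasdermin genes Gsdmc4 (3.19 ± 0.23) and Gsdmc2 (2.82 ± 0.08), which encode pore-forming proteins of close sequence whose probes may share targets, and Tmigd1 (2.41 ± 0.06), a cell adhesion protein. Enzymes that make reactive oxygen or nitrogen species were also among them. Nos2, the inducible nitric oxide synthase, had 5.45, 7.45, 7.40 and 7.54 on the middle arrays and 4.45, 4.44, 5.60 and 4.66 on the proximal arrays. Its old high-fat middle array, at 5.45, lay below the highest proximal array, so the groups overlapped (difference 2.17 ± 0.32, adjusted p = 0.00401). Duox2, a dual oxidase that releases hydrogen peroxide, had 6.48, 6.75, 8.17 and 7.54 on the middle arrays and 5.40, 4.90, 5.52 and 5.26 on the proximal arrays (difference 1.97 ± 0.23, adjusted p = 0.00165). Ddah1, which breaks down an inhibitor of nitric oxide synthases, differed by 2.11 ± 0.11 (adjusted p = 0.000105).

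**Figure D2:**
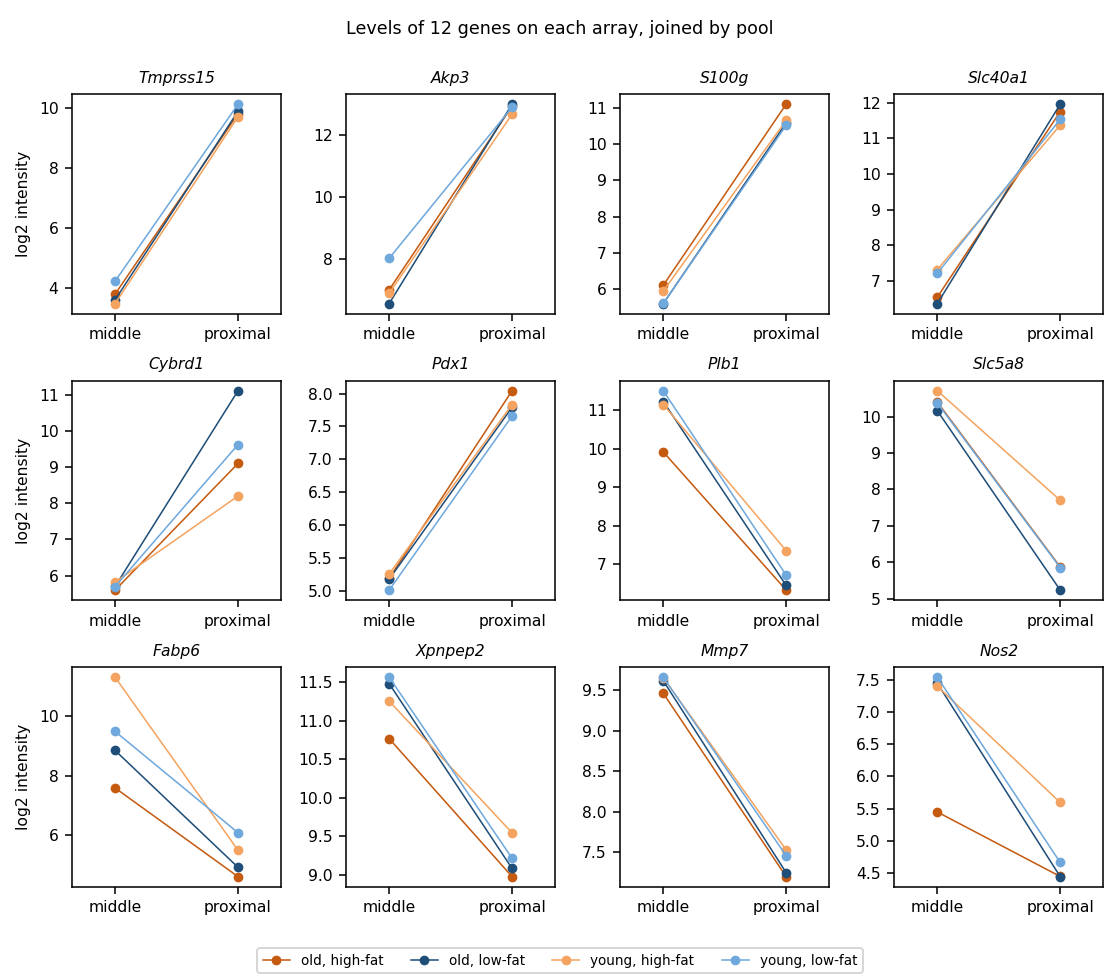
Log2 intensity (vertical axes) of 12 genes on each middle (left) and proximal (right) array, with lines joining the arrays of a pool and colours marking the pools. Tmprss15, Akp3, S100g, Slc40a1, Cybrd1 and Pdx1 are lower and the other 6 genes higher in the middle segment in every pool, and Fabp6 and Nos2 show the widest spread among the middle arrays.

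GATA and Cdx factors are known for regional expression in the gut, and promoters of the leading genes are shown with the letters these factors bind. Windows of 300 bases (250 before and 50 after the annotated start, RefSeq, build GRCm38.p6) were at hand for 12 of the 15 largest falls and 12 of the 15 largest rises outside the gland lists. The letters AGATAA and TGATAA, which GATA factors bind, and TTTATNG, a form of the letters that the homeodomain factors Cdx1 and Cdx2 bind, were searched on both strands, as was CAAAGTCCA, a form of the letters bound by the nuclear receptor Hnf4a. At least 1 of the GATA words stood in 5 of 12 windows of the falls and 3 of 12 of the rises, against 10.6% of the windows of 9553 tested genes. These counts are small and were not tested. The 5 falls were 2210010C04Rik, Reg1, Pdia2, Sult6b2 and Cyp2c29. Of these, 2210010C04Rik, Reg1 and Pdia2 shared the order of pools of the pancreas list, which is given below. The Cdx word stood in 3 of 12 windows of each group, against 7.32% of all tested genes, and it overlaps with the letters of a TATA box. The Hnf4a word stood in 0 of 12 windows of each group, against 0.482% of all tested genes. A match describes the letters and not a bound site. The windows of 2 falls and 2 rises with matches follow, 5′ to 3′ along the gene's strand, with the matched letters in capitals.
Tmprss15 (chr16:79091048-79091347, minus strand; Cdx word): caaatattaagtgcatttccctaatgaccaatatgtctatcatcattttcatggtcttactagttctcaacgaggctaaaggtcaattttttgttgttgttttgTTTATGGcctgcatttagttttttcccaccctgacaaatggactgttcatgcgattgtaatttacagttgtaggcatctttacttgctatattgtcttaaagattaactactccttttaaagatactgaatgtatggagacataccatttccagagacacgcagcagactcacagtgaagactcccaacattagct
Sult6b2 (chr6:142804417-142804716, minus strand; both GATA words, the first on the reverse strand): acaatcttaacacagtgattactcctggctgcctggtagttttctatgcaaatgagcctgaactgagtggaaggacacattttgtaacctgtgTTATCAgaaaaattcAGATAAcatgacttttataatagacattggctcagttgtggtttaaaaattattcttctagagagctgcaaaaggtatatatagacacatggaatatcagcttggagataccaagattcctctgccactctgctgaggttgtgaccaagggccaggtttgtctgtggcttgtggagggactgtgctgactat
Plb1 (chr5:32238834-32239133, plus strand; Cdx word): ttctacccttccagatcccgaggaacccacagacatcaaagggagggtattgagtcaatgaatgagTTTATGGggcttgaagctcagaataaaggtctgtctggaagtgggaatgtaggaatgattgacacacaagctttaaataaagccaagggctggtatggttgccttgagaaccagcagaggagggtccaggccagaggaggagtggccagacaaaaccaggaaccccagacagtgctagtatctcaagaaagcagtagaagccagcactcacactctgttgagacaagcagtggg
Mmp7 (chr9:7691840-7692139, plus strand; both GATA words and, on the reverse strand, the Cdx word): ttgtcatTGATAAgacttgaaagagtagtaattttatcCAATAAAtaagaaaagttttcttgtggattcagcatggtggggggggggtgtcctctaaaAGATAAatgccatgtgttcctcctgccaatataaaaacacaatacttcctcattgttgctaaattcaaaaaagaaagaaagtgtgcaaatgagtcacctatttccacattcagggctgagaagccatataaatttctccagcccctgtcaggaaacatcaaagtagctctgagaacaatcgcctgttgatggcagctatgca

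Of the factors themselves, Gata4, which maintains jejunal identity in mice, passed as lower in the middle segment by a small amount (-0.37 ± 0.05, adjusted p = 0.00221), and so did Gata6 (-0.36 ± 0.05, adjusted p = 0.00297). Gata5 passed as higher (0.44 ± 0.05, adjusted p = 0.00141), as did Cdx2, a factor of intestinal identity (0.34 ± 0.06, adjusted p = 0.006). Of 25 transcription factors listed for regional expression and tested, 9 passed as higher (5 without the old high-fat pool) and 9 as lower. Beside Pdx1, the largest falls were those of the homeodomain factor Meis2 (-1.73 ± 0.11, adjusted p = 0.000182), Onecut2 (-1.38 ± 0.08, adjusted p = 0.00012) and Nr0b2, a nuclear receptor that represses bile acid synthesis genes in liver (-1.14 ± 0.14, adjusted p = 0.00198). The largest rise was that of Osr2, a zinc finger factor, with 8.72, 8.94, 8.90 and 9.03 on the middle arrays and 7.14, 7.27, 7.58 and 7.38 on the proximal arrays (difference 1.55 ± 0.07, adjusted p = 5.73e-05). All 4 middle arrays of Osr2 lay above all proximal arrays.

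Transcripts of the exocrine pancreas accounted for the largest falls of all. All 27 tested genes of the pancreas list passed as lower, 24 of them over 2-fold, with a median difference of -5.28. Of the list 29 genes were measured. A gene was tested if it reached the intensity of 50 on any array, and members could do so on the proximal arrays alone. The count is thus partly set by the filter. Cpb1, a carboxypeptidase of pancreatic juice, had 3.90, 4.0, 3.76 and 5.94 on the middle arrays and 12.35, 11.87, 12.62 and 11.61 on the proximal arrays. Cel, the bile salt-activated lipase, had 3.87, 4.08, 4.15 and 5.49 on the middle arrays and 11.86, 11.21, 12.49 and 10.99 on the proximal arrays. On both genes the young low-fat middle array stood above the other 3 middle arrays, and the young high-fat proximal array was the highest. The median level of the list was 4.87, 4.96, 4.98 and 5.74 on the middle arrays and 11, 10.76, 11.98 and 10.08 on the proximal arrays, which gives pool differences of -5.35, -4.81, -6.32 and -4.33. The differences were thus smallest in the young low-fat and largest in the young high-fat pool, and 20 of the 27 genes had this order of all 4 pools. The order comes from the medians of these same genes, so their count is partly set by it.

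Of the 133 lower genes over 2-fold, 31 are on the pancreas, stomach or Brunner's gland lists and 102 are on none of them, while no higher gene over 2-fold is on these lists. 2210010C04Rik, named here by its symbol only, had 4.22, 4.62, 4.46 and 6.90 on the middle arrays and 12.67, 12.29, 13.26 and 12.27 on the proximal arrays, the largest fall outside the lists. Pdia2, a disulfide isomerase known from the pancreas, had 3.90, 4.06, 4.13 and 4.29 on the middle arrays and 8.03, 7.48, 9.07 and 7.49 on the proximal arrays. Of the 102 genes on no list, 6 had the order of the 4 pools of the pancreas list. They were 2210010C04Rik, Pdia2, Reg1, Amy1, Klk1b5 and Slc38a5. Some genes have this order by chance, and the share of all genes tested that have it was not counted. The 6 genes are therefore not set apart by it. The lists also do not hold every transcript of the pancreas. How far pancreatic tissue on the proximal scrapings has a part in these values was not tested.

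Transcripts of the stomach and of Brunner's glands were also lower in the middle segment, and most so in the high-fat pools. Of 11 tested stomach genes 7 passed as lower (4 without the old high-fat pool) and none as higher, and of 4 tested Brunner's gland genes 2 passed as lower. The 11 stomach genes are those of 20 measured that reached the filter, which they too could do on the proximal arrays alone. The median differences by pool were -1.09, -0.39, -1.33 and -0.48 for the stomach list and -1.28, -0.53, -1.51 and -0.42 for the Brunner's gland list. Tff2, a trefoil peptide of gastric neck cells and Brunner's glands, had 5.23, 4.68, 5.26 and 5.27 on the middle arrays and 10.23, 8.58, 10.91 and 8.89 on the proximal arrays (difference -4.54 ± 0.32, adjusted p = 0.00026). Muc6, the gel-forming mucin of the same cells, had 4.67, 4.68, 4.74 and 4.72 on the middle arrays and 6.68, 5.47, 7.09 and 5.72 on the proximal arrays (difference -1.54 ± 0.26, adjusted p = 0.00661). Gkn3, a gastrokine of the stomach lining, had 4.59, 4.39, 4.35 and 4.08 on the middle arrays and 7.66, 5.57, 8.38 and 6.34 on the proximal arrays (difference -2.64 ± 0.41, adjusted p = 0.00492, and 0.0503 with an intensity trend and robust variance). On each of these 3 genes both high-fat proximal arrays lay above both low-fat proximal arrays, while the middle arrays differed little. Gkn2 had 4.28, 4.22, 3.94 and 4.10 on the middle arrays and 6.82, 4.35, 8.04 and 5.41 on the proximal arrays, and here the old low-fat proximal array was near the middle arrays. Gkn2 passed over the 4 pools (difference -2.02 ± 0.58, adjusted p = 0.0407), but not without the old high-fat pool (-1.84, adjusted p = 0.125), the young low-fat pool (-2.25, adjusted p = 0.0652) or the young high-fat pool (-1.32, adjusted p = 0.0821). Ctse, the protease cathepsin E of gastric surface cells, had 5.37, 5.21, 5.31 and 5.14 on the middle arrays and 7.23, 7.50, 7.90 and 8.60 on the proximal arrays, with the young low-fat pool highest, so its order of pools was another (difference -2.55 ± 0.23, adjusted p = 0.000638).

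**Figure D3:**
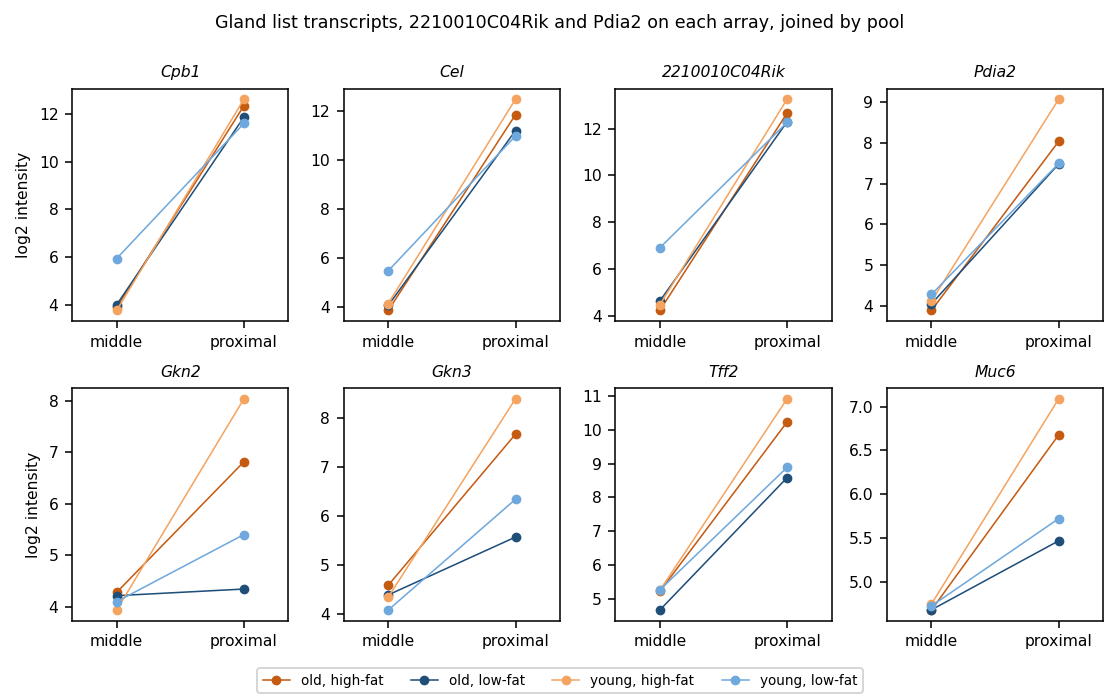
Log2 intensity (vertical axes) of Cpb1 and Cel of the pancreas list and of 2210010C04Rik and Pdia2, on no gland list (top row), and of stomach and Brunner's gland transcripts (bottom row) on each middle (left) and proximal (right) array, with lines joining the arrays of a pool. The young low-fat pool has raised middle levels of Cpb1, Cel and 2210010C04Rik, and the high-fat pools have the highest proximal levels of Gkn2, Gkn3, Tff2 and Muc6.

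Iron is taken up by the duodenum through reduction at the brush border, entry through a divalent metal transporter and export through ferroportin. Of 14 tested genes of iron handling 7 passed as lower and 3 as higher. Slc40a1, ferroportin, had 6.55, 6.37, 7.32 and 7.22 on the middle arrays and 11.75, 11.96, 11.37 and 11.54 on the proximal arrays (difference -4.79 ± 0.25, 27.7-fold lower, adjusted p = 0.000105). Cybrd1, the ferric reductase of the duodenal brush border, had 5.60, 5.70, 5.82 and 5.70 on the middle arrays and 9.11, 11.12, 8.20 and 9.63 on the proximal arrays. Its middle arrays were alike while its proximal arrays spread widely, with the old low-fat pool highest (difference -3.81 ± 0.43, adjusted p = 0.0013). Slc11a2, the metal transporter of entry, differed much less (-0.75 ± 0.08, adjusted p = 0.00113), as did Epas1, the hypoxia-inducible factor that controls these genes in the mouse duodenum (-1.35 ± 0.06, adjusted p = 5.73e-05). Tfrc, the transferrin receptor, was higher in the middle segment (0.64 ± 0.05, adjusted p = 0.000407).

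Calcium, phosphate and magnesium genes moved both ways, 3 of 12 passing as higher and 5 as lower. Beside S100g, the basolateral calcium pump Atp2b1 was lower in the middle segment (-1.01 ± 0.07, adjusted p = 0.000217). Slc34a2, the sodium phosphate cotransporter of the brush border, had 11.36, 11.63, 11.54 and 11.70 on the middle arrays and 10.10, 9.71, 9.87 and 9.70 on the proximal arrays, with no overlap (difference 1.71 ± 0.12, adjusted p = 0.000243). Trpm6, a magnesium channel, was higher (1.38 ± 0.16, adjusted p = 0.00148). Of 13 tested zinc, copper and metallothionein genes 4 passed as lower and 1 as higher, led by Slc30a10, an exporter of manganese (-1.74 ± 0.07, adjusted p = 5.08e-05).

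Genes of sugar digestion and fructose metabolism were more often lower than higher in the middle segment: 10 of 20 passed as lower and 1 as higher. Without the old high-fat or without the young high-fat pool 8 passed as lower. The median difference was -0.26 against 0.006 over all genes. No disaccharidase is among the genes named here. Slc2a5, the fructose transporter, had 10.62, 10.49, 10.53 and 10.52 on the middle arrays and 11.94, 11.97, 11.72 and 11.93 on the proximal arrays (difference -1.35 ± 0.06, adjusted p = 5.73e-05). Tkfc, the triokinase of fructose breakdown, differed by -0.97 ± 0.05 (adjusted p = 0.000107), and the gluconeogenic enzymes Fbp1 and G6pc by -1.87 ± 0.09 and -1.05 ± 0.05 (adjusted p = 6.56e-05 and 7.8e-05). Slc2a2, the basolateral glucose and fructose transporter, had 11.40, 12.03, 11.35 and 12.05 on the middle arrays and 12.56, 12.68, 12.55 and 12.68 on the proximal arrays. Its high-fat middle arrays were lower than its low-fat middle arrays (difference over all pools -0.91 ± 0.11, adjusted p = 0.00204). The gene that rose was Slc5a4b, of the sodium glucose cotransporter family (0.77 ± 0.06, adjusted p = 0.000453).

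Peptidases and transporters of peptides and amino acids went the other way, with 13 of 27 higher, 4 lower and a median difference of 0.24. Xpnpep2, a membrane aminopeptidase, had 10.77, 11.48, 11.26 and 11.57 on the middle arrays and 8.98, 9.08, 9.55 and 9.22 on the proximal arrays (difference 2.06 ± 0.13, adjusted p = 0.000173). The middle arrays were all above the proximal ones, the old high-fat array being the lowest of them. Slc1a1, a transporter of glutamate and aspartate, differed by 1.64 ± 0.07, the peptidase Naaladl1 by 1.42 ± 0.06 and Mep1a, the alpha subunit of meprin, by 1.18 ± 0.06 (adjusted p = 5.48e-05, 5.97e-05 and 0.000111). Slc15a1, the peptide transporter PepT1, rose by a small amount (0.46 ± 0.06, adjusted p = 0.00262), with overlap between the groups. The fall of Tmprss15 belongs to the same list.

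Of 31 tested genes of fat absorption 2 (6.5%) passed as higher and 7 (22.6%) as lower, against 16.3% and 13.3% of all genes tested. The median difference was -0.05, and 2 of the 7 were lower over 2-fold. Without the old low-fat pool or without the young high-fat pool 3 passed as lower. Clps, pancreatic colipase, which is on the pancreas list too, led the falls (-2.21 ± 0.22, adjusted p = 0.000815), followed by Scarb1, a receptor for lipoproteins that takes up cholesterol, with 6.53, 6.68, 6.45 and 7.35 on the middle arrays and 8.47, 8.75, 8.23 and 8.97 on the proximal arrays (difference -1.85 ± 0.08, adjusted p = 5.48e-05). Fabp2, the intestinal fatty acid-binding protein, was higher by 0.33 ± 0.05 (adjusted p = 0.004). Enpp7, the alkaline sphingomyelinase of the brush border, had 11.61, 11.88, 11.81 and 12.03 on the middle arrays and 9.41, 9.98, 10.44 and 10.14 on the proximal arrays. It was the largest rise of a list of fat sensing and lipid signal genes (difference 1.84 ± 0.12, adjusted p = 0.000223). Of this list 4 of 16 (25.0%, against 16.3% of all genes tested) passed as higher and none as lower. Of 32 genes of ketogenesis and fatty acid oxidation 10 passed as lower and 1 as higher, led by Oxct1, which activates ketone bodies (-0.92 ± 0.10, adjusted p = 0.00114), and Ehhadh, a peroxisomal enzyme (-0.64 ± 0.05, adjusted p = 0.000498), but without the old low-fat pool 5, without the young low-fat pool 6 and without the young high-fat pool 6 passed as lower. Of 20 genes of cholesterol synthesis and its control 6 passed as higher and 1 as lower, and without the old low-fat pool or without the young low-fat pool 3 passed as higher. Sqle, squalene epoxidase, was among the 6 (0.53 ± 0.08, adjusted p = 0.00528).

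Of 12 ileal and bile acid genes 7 passed as higher and 3 as lower (4 as higher without the old low-fat or without the young low-fat pool). Beside Fabp6, the bile acid transporter Slc10a2 had 7.79, 6.84, 9.94 and 7.48 on the middle arrays and 6.49, 5.86, 6.33 and 6.13 on the proximal arrays (difference 1.81 ± 0.41, adjusted p = 0.019, and 0.115 with an intensity trend and robust variance). Without the young high-fat pool the difference was 1.21, with adjusted p = 0.00114. The young high-fat middle array was the highest, as for Fabp6. Fgf15, the hormone that signals bile acid return to the liver, had 7.03, 8.63, 7.18 and 7.83 on the middle arrays and 6.03, 4.85, 6.05 and 6.01 on the proximal arrays (difference 1.93 ± 0.43, adjusted p = 0.0185, and 0.113 with the intensity trend). Without the old low-fat pool the difference was 1.32, with adjusted p = 0.00757. Here the old low-fat middle array was the highest, so the middle arrays did not share 1 order over these genes. Abcc3, a basolateral exporter of bile acids and conjugates, was lower (-0.75 ± 0.13, adjusted p = 0.00657).

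Vitamin genes passed in both directions, with 6 of 21 higher and 8 lower. The folate transporters Slc46a1 and Slc19a1 were lower: Slc46a1 had 10.19, 9.91, 10.01 and 10.20 on the middle arrays and 11.61, 11.77, 11.53 and 11.83 on the proximal arrays (difference -1.61 ± 0.08, adjusted p = 7.59e-05), and Slc19a1 differed by -1.49 ± 0.06 (adjusted p = 4.96e-05). The mean distal level of Slc46a1 was 7.35. Cubn, the receptor for intrinsic factor with cobalamin, had 10.997, 11.55, 11.44 and 11.90 on the middle arrays and 9.87, 10.44, 10.55 and 11.02 on the proximal arrays. Its groups overlapped at the margin, and it was higher in the middle in all 4 pools (difference 1.0 ± 0.06, adjusted p = 0.000173). Its partner Amn was higher too (0.60 ± 0.07, adjusted p = 0.00202), as was Slc52a3, a riboflavin transporter (1.24 ± 0.18, adjusted p = 0.00361). The ascorbate transporters differed in direction: Slc23a1 rose by 0.98 ± 0.11 and Slc23a2 fell by 1.20 ± 0.10 (adjusted p = 0.00121 and 0.000452). With no block for the pool the adjusted p of Slc23a1 was 0.059.

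Enzymes and transporters of xenobiotics formed the longest list and were mostly lower in the middle segment, with 35 of 54 lower, 11 of them over 2-fold, and 6 higher (median difference -0.37). Cyp2c29, a cytochrome P450, had 5.47, 4.93, 5.78 and 5.65 on the middle arrays and 7.41, 8.17, 7.71 and 8.86 on the proximal arrays (difference -2.58 ± 0.26, adjusted p = 0.000859). Ephx1, microsomal epoxide hydrolase, had 7.94, 7.17, 7.51 and 7.16 on the middle arrays and 9.85, 9.99, 9.48 and 9.62 on the proximal arrays (difference -2.29 ± 0.15, adjusted p = 0.000199). The groups of both genes were well apart. The carboxylesterase Ces1g (-1.95 ± 0.15), the glutathione transferase Gsta4 (-1.79 ± 0.10), the sulfotransferase Sult1c2 (-1.62 ± 0.07) and the alcohol dehydrogenase Adh4 (-1.54 ± 0.20) followed. Genes of these families have close relatives whose probes may share targets. Aldh1b1, a mitochondrial aldehyde dehydrogenase, was the largest of the 6 rises (0.90 ± 0.05, adjusted p = 0.000131).

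Ion and fluid transport genes passed in both directions, 12 of 25 higher and 8 lower (5 lower without the old low-fat pool). Guca2a, the peptide hormone guanylin, had 11.48, 12.09, 11.73 and 12.09 on the middle arrays and 9.54, 10.42, 10.03 and 10.37 on the proximal arrays (difference 1.76 ± 0.06, adjusted p = 3.57e-05). The water channel Aqp1 was higher by 1.34 ± 0.08 (adjusted p = 0.000131). Of the carbonic anhydrases, cytosolic Car2 had 7.22, 7.15, 7.28 and 7.20 on the middle arrays and 8.83, 8.79, 8.91 and 8.94 on the proximal arrays (difference -1.65 ± 0.05, adjusted p = 1.63e-05), whereas membrane-bound Car4 was higher (1.07 ± 0.06, adjusted p = 0.00013). Among 17 genes of brush border phosphatases and purine handling 9 passed as lower and 3 as higher, and beside Akp3 the fall of Ada, adenosine deaminase, was over 2-fold (-1.04 ± 0.12, adjusted p = 0.00146).

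Hormone genes of enteroendocrine cells divided by hormone. Of 19 tested, 9 were lower and 4 higher in the middle segment. Cck, cholecystokinin, had 9.12, 8.55, 8.82 and 8.57 on the middle arrays and 9.87, 9.79, 9.71 and 9.97 on the proximal arrays (difference -1.07 ± 0.11, adjusted p = 0.000982), and Tph1, the serotonin-producing hydroxylase, differed by -1.06 ± 0.05 (adjusted p = 5.73e-05). Nts, neurotensin, had 9.73, 9.84, 9.43 and 9.34 on the middle arrays and 8.02, 8.02, 8.16 and 7.84 on the proximal arrays (difference 1.57 ± 0.09, adjusted p = 0.000137). Pyy, peptide YY, and Gcg, which encodes glucagon-like peptides, were higher by 1.09 ± 0.12 and 0.66 ± 0.05 (adjusted p = 0.00113 and 0.000365). In these RNA pools, fewer cells of a type and less RNA per cell cannot be told apart.

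Paneth cells sit at the crypt base and secrete antimicrobial proteins. Their list had the largest median rise, 1.62, with 7 of 8 tested genes higher, 6 of them over 2-fold, and none lower. The remaining gene differed by -0.47 and did not pass. Of 17 genes listed only these 8 had a probe set of their own, so the rest of the list is not covered. Mmp7, which activates alpha-defensins in mice, had 9.46, 9.62, 9.65 and 9.66 on the middle arrays and 7.20, 7.25, 7.53 and 7.46 on the proximal arrays (difference 2.24 ± 0.06, adjusted p = 9.09e-06). The middle arrays of Mmp7, whose promoter is printed above, were alike. Ang4, an antimicrobial ribonuclease, had 7.90, 8.05, 8.06 and 8.01 on the middle arrays and 5.38, 6.09, 6.23 and 6.02 on the proximal arrays, and Itln1, a lectin that binds microbial sugars, differed by 1.96 ± 0.09 (adjusted p = 0.000115 and 7.41e-05). Defa24, an alpha-defensin with close relatives on the array, and Lyz1, the lysozyme of Paneth cells, rose by 1.61 ± 0.09 and 1.17 ± 0.06. Other antimicrobial lectins of enterocytes rose less, Reg3g by 0.96 ± 0.07 and Reg3b by 0.72 ± 0.08 (adjusted p = 0.000312 and 0.0012). They belong to a list of antimicrobial and bacterial response genes, of which 9 of 22 passed as higher and 6 as lower. Its other rises include Pglyrp1, which binds bacterial peptidoglycan (1.10 ± 0.09, adjusted p = 0.000406), and its falls are led by Reg1 and by Reg3d, a relative of Reg3b (-1.76 ± 0.24, adjusted p = 0.0031).

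Stem cell and cell cycle genes rose together with Paneth genes. Of 14 crypt stem cell and Wnt genes 10 passed as higher and 1 as lower (median 0.36), and of 20 cell cycle genes 17 passed as higher and 1 as lower (median 0.60). Olfm4, a secreted glycoprotein of crypt base cells, had 10.96, 10.98, 10.86 and 10.81 on the middle arrays and 9.72, 9.70, 9.78 and 9.89 on the proximal arrays (difference 1.13 ± 0.07, adjusted p = 0.000173). Lgr5, the receptor that marks crypt stem cells, differed by 0.43 ± 0.05, and Axin2, a target of Wnt signalling, by 0.83 ± 0.10 (adjusted p = 0.00123 and 0.00202). Top2a, the topoisomerase of dividing cells, had 8.83, 8.79, 9.01 and 8.70 on the middle arrays and 7.99, 7.70, 8.04 and 8.06 on the proximal arrays, with no overlap (difference 0.89 ± 0.08, adjusted p = 0.000578). The medians of the 2 lists were above 0 in every pool, at 0.39, 0.35, 0.32 and 0.36 for the stem cell list and 0.67, 0.61, 0.69 and 0.50 for the cell cycle list. Goblet cell genes moved little, with 6 of 15 higher, none lower and a median of 0.06, and Muc2, their gel-forming mucin, differed by 0.36 ± 0.06 (adjusted p = 0.00624).

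Smooth muscle genes were higher in the middle scrapings as well, 9 of 16 passing and none lower, with a median difference of 0.40. Myh11, its myosin heavy chain, had 7.68, 7.58, 8.37 and 8.45 on the middle arrays and 6.62, 6.55, 7.21 and 7.84 on the proximal arrays. Young pools exceeded old ones in both segments, so that the groups overlapped, while all 4 pools were higher in the middle segment (difference 0.97 ± 0.09, adjusted p = 0.000752). The median level of the list was 6.36, 6.43, 6.68 and 6.68 on the middle arrays and 6.12, 6.18, 6.15 and 6.55 on the proximal arrays. With no block for the pool 2 smooth muscle genes passed. Of 4 genes of enteric nerve and glia 2 passed as higher, led by Kit, the receptor of intestinal pacemaker cells (0.74 ± 0.07, adjusted p = 0.000582), but 1 passed without the old low-fat, without the old high-fat or without the young high-fat pool. Of 6 fat tissue genes 2 passed as higher, among them Adipoq, the fat cell hormone adiponectin (0.61 ± 0.10, adjusted p = 0.0066), and 1 as lower, and without the old high-fat pool 1 passed as higher. Of 15 fibroblast and matrix genes 2 passed as higher (1 without the old high-fat or without the young high-fat pool) and 1 as lower. Of 9 endothelial genes 2 passed as lower (4 without the old high-fat pool). The shares were 13.3% higher and 6.7% lower for fibroblast and matrix genes and 22.2% lower for endothelial genes. Over all genes tested they were 16.3% higher and 13.3% lower. The part that the share of muscle and other cells has in the crypt gene differences was not tested.

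Genes induced by interferon were lower in the middle segment. Of 23 tested, 20 passed as lower and none as higher, with a median difference of -0.69. Rsad2, the antiviral protein viperin, had 6.17, 6.31, 6.26 and 6.62 on the middle arrays and 8.56, 7.73, 7.57 and 7.84 on the proximal arrays (difference -1.58 ± 0.19, adjusted p = 0.00171). The old high-fat proximal array was the highest and the middle arrays varied less. Ifit3 and Usp18, both induced by type I interferon, showed differences of -1.40 ± 0.14 and -1.13 ± 0.14 (adjusted p = 0.000869 and 0.00204), and Xaf1 of -0.88 ± 0.11 (adjusted p = 0.00225). The list's median differences by pool were -1.09, -0.50, -0.68 and -0.39, lower in the middle segment in every pool and most so in the old high-fat pool.

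Of 14 tested genes of T cells and intraepithelial lymphocytes 6 passed as lower and none as higher (median -0.29), but without the old low-fat pool or without the young high-fat pool 2 passed. Cd3e, a chain of the T cell receptor complex, differed by -0.26 ± 0.05 (adjusted p = 0.0105), and Klrd1, a receptor of natural killer and intraepithelial cells, by -0.57 ± 0.11 (adjusted p = 0.0111). Of 18 myeloid genes 5 passed as lower and 1 as higher, and without single pools the number lower ran between 2 (without the young high-fat pool) and 9 (without the old high-fat pool), with 3 without the old low-fat or without the young low-fat pool. The myeloid gene that rose was Lyz2, a lysozyme whose probes may share targets with Lyz1 (0.92 ± 0.06, adjusted p = 0.000169). Of 12 genes of B cells and follicles 3 (25.0%, against 16.3% of all genes tested) passed as higher and none as lower. They were led by Cxcl13, the chemokine of follicles (0.68 ± 0.11, adjusted p = 0.00524). Of 7 plasma cell genes 3 passed as lower and 1 as higher, but without the old low-fat or without the young low-fat pool 1 and without the young high-fat pool 0 passed as lower. Of 10 tuft cell genes 1 (10.0%, against 13.3% of all genes tested) passed as lower and none as higher. None of 9 tested genes of MHC class II presentation passed in limma, and without the old high-fat pool 2 passed as higher.

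**Figure D4:**
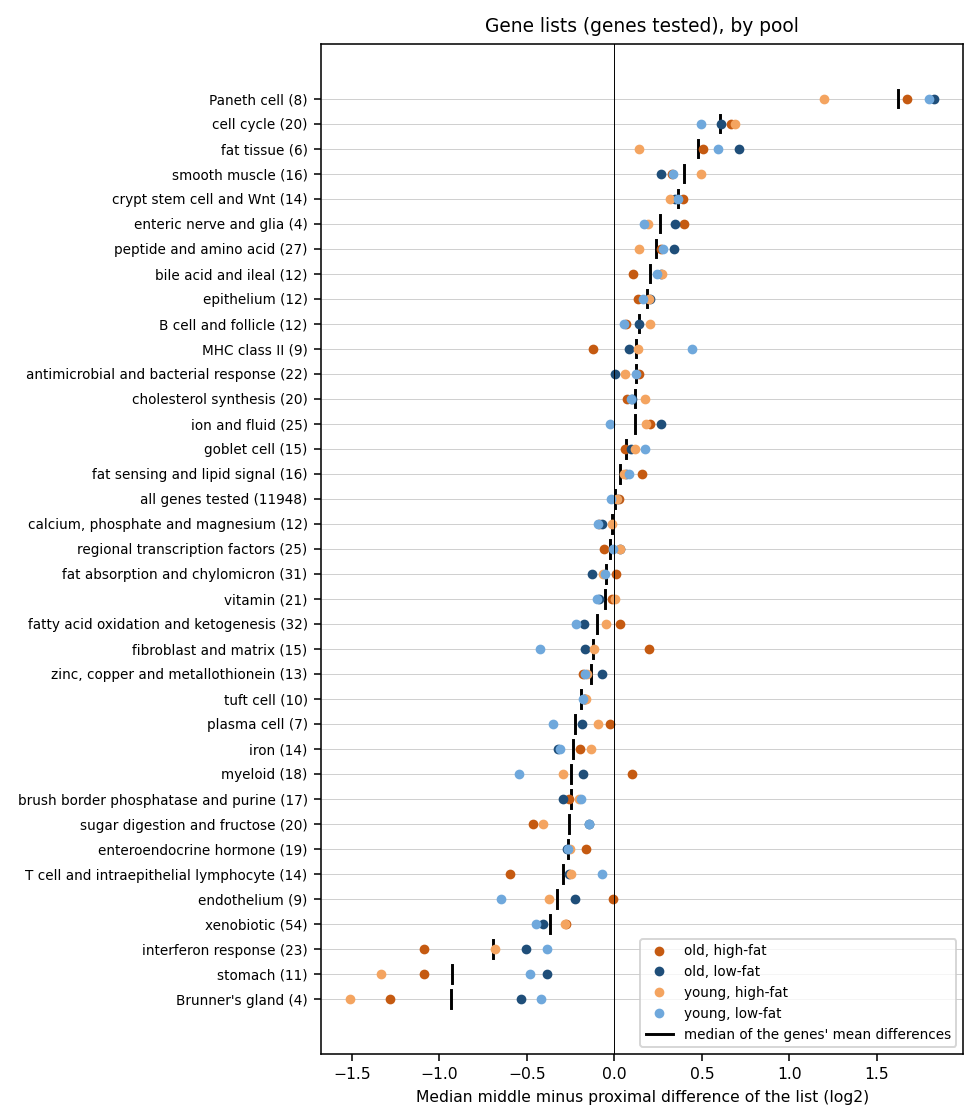
Median middle minus proximal difference (horizontal axis, log2) of the tested genes of each list in each pool (points) and over the 4 pools (black bars), with the number of genes tested in parentheses. The pancreas list, at a median of -5.28, is not drawn. Paneth cell, cell cycle and stem cell genes lie above 0 and interferon, stomach and Brunner's gland genes below 0 in every pool.

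To ask which genes were at their highest or lowest in the middle segment and not on a gradient, the distal arrays of the same pools were added. Against the mean of the proximal and distal segments, 693 genes (5.8%) passed as higher in the middle and 382 (3.2%) as lower. Without the old low-fat pool 152 and 109 did so, without the young low-fat pool 265 and 143, and without the young high-fat pool 320 and 195. Of the 693 and 382 genes, 117 (0.979%) passed as above both the proximal and the distal segment, and 75 (0.628%) as below both. Slc23a1, an ascorbate transporter, had 9.41, 8.57, 9.63 and 8.31 on the proximal arrays, 10.34, 9.38, 10.42 and 9.72 on the middle arrays and 8.62, 7.73, 8.60 and 7.24 on the distal arrays. In every pool the middle array was the highest, and on average the middle exceeded the mean of the ends by 1.45 (adjusted p = 5.21e-05). Slc5a12, a transporter of lactate and other monocarboxylates, had 11.36, 10.95, 11.63 and 10.90 on the proximal arrays, 12.03, 11.95, 12.10 and 11.92 on the middle arrays and 11.23, 10.30, 11.06 and 10.30 on the distal arrays (1.04 above the mean of the ends, adjusted p = 0.00059). Dnase1, a secreted nuclease, was 1.25 above and Susd2, a membrane protein, 0.96 above the mean of the ends (adjusted p = 2.25e-05 and 0.000146).

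The 2 genes with the deepest minimum in the middle segment were a metal and an anion transporter. Slc40a1 lay -3.30 from the mean of the ends (adjusted p = 4.07e-05), with distal levels of 7.90, 8.75, 8.82 and 9.21, above the middle in every pool and below the proximal segment. Slc13a1, the sodium sulfate cotransporter, had 11.98, 12.26, 11.94 and 12.35 on the proximal arrays, 8.72, 9.51, 10.38 and 10.09 on the middle arrays and 11.67, 11.85, 12.16 and 12.19 on the distal arrays. Its ends were alike and its middle was -2.37 from their mean (adjusted p = 6.9e-05). The calcium pump Atp2b1 (-0.90), the sulfotransferase Sult1c2 (-1.20) and the ketone body enzyme Oxct1 (-0.91) were also lowest in the middle segment. The ends of Sult1c2 were less alike, with means of 6.92 (proximal) and 6.08 (distal). Both contrasts behind this count share the middle arrays, and every pool weighs on it: 32 genes were highest and 17 lowest in the middle without the old low-fat pool, 68 and 46 without the old high-fat pool, 53 and 25 without the young low-fat pool, and 62 and 37 without the young high-fat pool.

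**Figure D5:**
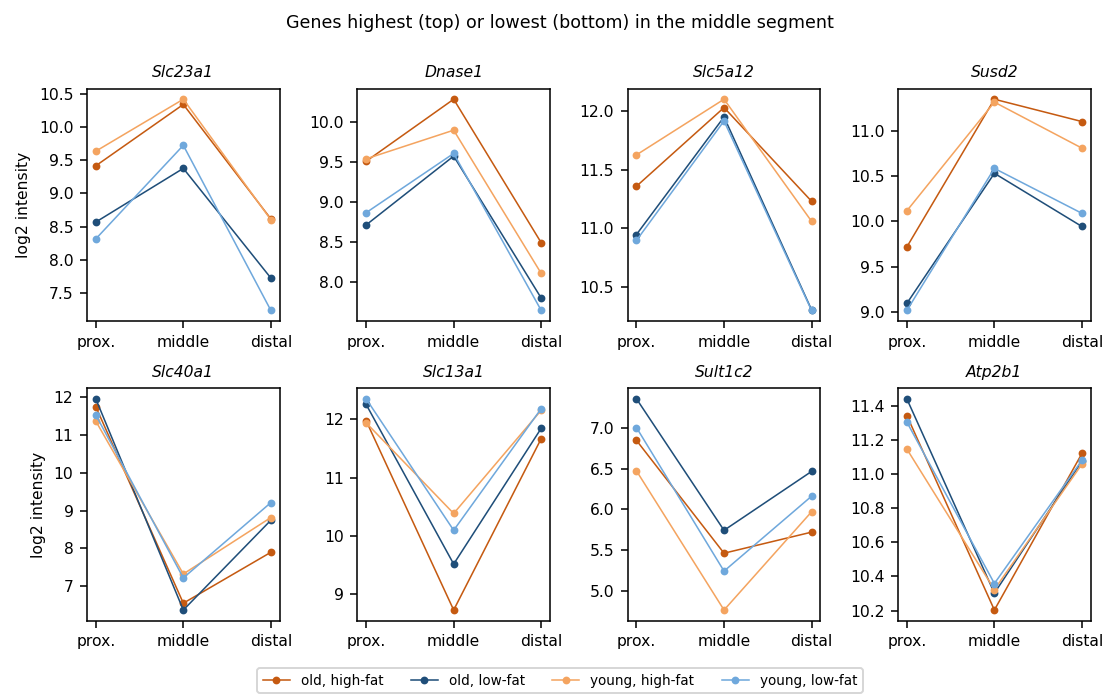
Log2 intensity (vertical axes) of 8 genes in the proximal, middle and distal segment, with a line for each pool. Slc23a1, Dnase1, Slc5a12 and Susd2 peak and Slc40a1, Slc13a1, Sult1c2 and Atp2b1 dip in the middle segment in every pool.

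Whether the difference between segments depended on age or diet was asked from the 4 pool differences, with 1 residual degree of freedom. No gene (0%) passed for age in limma, where 932 had an unadjusted p under 0.05, and 181 passed with an intensity trend and robust variance. For diet 15 genes (0.126%) passed, but only 3 under several alternatives given below, so that most of the 15 lost the call there. The lowest adjusted p-values in limma were those of 2310057J18Rik, Gkn2 and Gkn3 (0.00402, 0.00485 and 0.00709). Cybrd1 had differences of -3.51 and -2.39 in the old and young high-fat pools and -5.42 and -3.93 in the old and young low-fat pools. Its fall in the middle segment was thus smaller on the high-fat diet at both ages (high-fat minus low-fat 1.73 ± 0.12, adjusted p = 0.0191), and the proximal levels were the ones that varied. Cyp2c29 (1.29 ± 0.10, adjusted p = 0.0248) and Sult6b2 (1.09 ± 0.11, adjusted p = 0.0428) changed in the same direction. Bbox1, the last enzyme of carnitine synthesis, had differences of -0.45 and -0.63 in the high-fat and -2.02 and -2.08 in the low-fat pools. Its middle levels were 10.06, 7.83, 9.56 and 7.52 and its proximal levels 10.51, 9.84, 10.18 and 9.59, so that mainly the middle arrays were higher on the high-fat diet (change 1.51 ± 0.10, adjusted p = 0.0172).

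The rise of Plb1 in the middle segment was smaller on the high-fat diet, with differences of 3.60 and 3.80 in the high-fat and 4.78 and 4.80 in the low-fat pools (change -1.09 ± 0.11, adjusted p = 0.0428). Npl, a lyase of sialic acid breakdown, had differences of 0.71 and 0.79 in the high-fat and 2.38 and 1.98 in the low-fat pools, with middle levels of 7.98, 10.41, 8.61 and 10.78 and proximal levels of 7.28, 8.03, 7.82 and 8.80. Its low-fat middle arrays stood apart above all others (change -1.43 ± 0.14, adjusted p = 0.0428). The stomach and Brunner's gland genes Gkn2, Gkn3, Tff1 and Muc6 made up 4 of the 15, each with a larger fall on the high-fat diet. The proximal levels of Gkn2, Gkn3 and Muc6 are given above, and those of Tff1 were 7.28, 6.12, 8.25 and 6.38. With the 12 arrays and no block, the diet term alone, no intensity filter or quantile normalization 3 genes passed, and with the intensity trend 592.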

How the data were processed

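The log2 values deposited by the authors are RMA values (Robust Multi-array Average): probe intensities were corrected for background, brought to 1 distribution on all arrays and combined for each probe set. A change shared by most genes would not show in them. The version is not given in the sources used here. Values ran from 1.8 to 14.49, and the medians of the 8 arrays from 5.57 to 5.62. Of 35556 probe sets 21789 carry 1 gene symbol, 1621 several and 12146 none, and the probe set with the highest mean stood for each gene. Differences were fitted with limma 3.58.1 in R 4.3.3, with 3 residual degrees of freedom, a prior SD of 0.0832 and Benjamini-Hochberg adjustment over the 11948 genes tested. The fits were checked on simulated data.

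The labels give a segment and a pool code for each array, and by the methods of the study a pool holds the same mice in each segment. The pool was therefore a block (the replicate block). Deviations of arrays of the same pool from their segment means correlated at 0.29 to 0.434 across genes. Arrays of a pool share age and diet as well as mice, so these correlations hold any effect of age and diet too. The members, the 38 gene lists (780 entries, 706 measured, 634 tested, none of the blood list) and the comparisons were chosen with earlier results of these data known. Genes were named by a rule: the 15 largest rises and falls outside the gland lists, up to 6 members of each list with the largest differences, any gland list member, and genes with the largest change of the difference with age or diet. Slc5a4b, Slc15a1, Fabp2, Amn, Aldh1b1, Reg3b, Reg3g, Pglyrp1, Gata4, Gata5, Gata6, Cd3e, the remaining genes that changed with diet and the genes highest or lowest in the middle were chosen after their values had been seen. Alternatives changed the block, the arrays in the fit, the variance model, the intensity filter, the choice of probe set, the centring, the normalization, the gland genes and the pools. Promoter sequences are those of RefSeq. No protein sequence was used here.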

Additional observations from a re-analysis of the deposited data

Results flagged for a closer look

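A single array stood apart from the other 3 of its segment in 19 of 390 groups of 4 arrays examined, and chance sets apart about 1 in 20. The young low-fat middle array was above the others for Cpb1 (5.94), 2210010C04Rik (6.90) and the median of the pancreas list (5.74), for 2310057J18Rik (3.86) and for Slc11a2 (8.92). Among middle arrays, the old high-fat array was the lowest for Nos2 (5.45), Mep1a (10.64) and the median of the Paneth cell list (8.68) and the highest for the median of the brush border phosphatase and purine list (10.16), and the old low-fat array was the lowest for Tff2 (4.68) and the highest for Kit (7.41), the receptor of pacemaker and mast cells. Among proximal arrays, the young high-fat array was the lowest for Slc2a5 (11.72) and the highest for Habp2 (6.80), a secreted protease of the Paneth cell list. The old low-fat proximal array was the lowest for Fgf15 (4.85) and the highest for the median of the iron list (10.17), and the old high-fat proximal array was the highest for the median of the interferon list (8.56). The young low-fat proximal array was the lowest for Pyy (6.79) and the highest for the medians of the smooth muscle list (6.55) and the myeloid list (7.35).

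For a change of the middle minus proximal difference with diet, 15 genes passed in limma, with 1 residual degree of freedom. With the diet term alone or with quantile normalization 3 genes passed. High-fat minus low-fat, the change was below 0 for 2310057J18Rik (-2.44), Gkn2 (-2.60), Gkn3 (-1.84), Tff1 (-1.59), Muc6 (-1.28), Klrh1 (-1.21), Plb1 (-1.09) and Npl (-1.43). It was above 0 for Bbox1 (1.51), Cybrd1 (1.73), Cyp2c29 (1.29), Ugt2b5 (1.15), Kdelr3 (1.18), Sult6b2 (1.09) and Ces1f (1.47). 2310057J18Rik, which is on none of the gland lists, had levels of 3.55, 3.57, 3.53 and 3.86 on the middle and 6.60, 4.24, 6.82 and 4.64 on the proximal arrays, the high-fat proximal arrays being the highest, as for the gastrokines.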

How the results depend on the processing

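The counts of genes over 2-fold stayed within 1.5 times their values under every alternative run, and of the 205 genes over 2-fold 188 to 205 were shared with each alternative except the removal of the gland lists, which left 174. With no replicate block 1588 genes passed as higher and 1162 as lower, 70 and 125 of them over 2-fold. Without single pools 1119 to 1716 genes passed as higher and 954 to 1239 as lower. Distal minus middle, 951 to 1790 passed as higher and 1547 to 2186 as lower without single pools. Against the mean of the ends, 434 passed as higher with no replicate block and 152 to 508 without single pools, and 109 to 345 as lower without single pools. The genes highest and lowest in the middle numbered 69 and 45 with no replicate block, and 32 to 68 and 17 to 46 without single pools. For diet, 3 genes passed with all 12 arrays and no replicate block, with the diet term alone, with no intensity filter and with quantile normalization, and 592 with an intensity trend and robust variance, which gave 181 for age. The causes were not tested. The alternatives for the genes highest and lowest in the middle, and the list counts without single pools or the block, were chosen after seeing the data.

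With no replicate block the counts of lower genes were 4 for the stomach list, 2 for myeloid genes, 3 for fat absorption, 5 for vitamin genes, 5 for fatty acid oxidation and 5 for ion and fluid genes, and those of higher genes were 2 for smooth muscle, 4 for bile acid and ileal genes, 2 for cholesterol synthesis and 2 for xenobiotic genes. Single genes were followed under the alternatives other than those of the intensity filter and of the gland genes. Of 287 genes that the naming rule gave or that were considered for the text, 235 passed. Of these, 173 did so under every alternative followed and 62 did not under at least 1. None reversed. Of the 153 considered for the text that passed, 128 did so under every alternative followed and 25 did not. Counts of 1 gene in a list (cell cycle, plasma cell, tuft cell, fibroblast, zinc and fatty acid oxidation genes) became 0 without at least 1 pool. The medians of the regional transcription factor, calcium and ion lists, all near 0, changed sign under some alternatives.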
